A study of Rattus norvegicus with 9 samples.

Results

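Liver expression of the genes that make, carry, esterify and sense cholesterol was examined in 9 male Goto-Kakizaki (GK) rats, 1 array per rat. Of 31 listed genes, 28 had a probe set that the annotation assigned to that gene alone, out of 14217 such genes on the array, and each was read from its brightest such probe set. Hmgcs1, Npc1 and Soat2 had none and were not analysed here. The 28 genes were placed in 5 roles, namely 7 genes of the mevalonate and isoprenoid steps, 3 of squalene formation and ring closure, 9 of the steps between lanosterol and cholesterol, 4 of SREBP2 control and 5 of transport, esterification and receptor turnover. All 28 passed the filter on low signals.

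GK rats develop type 2 diabetes without any drug or diet, and all 9 rats were diabetic. They had arrived at 5 weeks of age and were assigned at random 7 weeks later to chronic unpredictable mild stress (CUMS), with 1 changing stressor a day and single housing, or to normal keeping. Stress lasted 8 weeks. The labels give major depression for CUMS 1–3, mild depression for CUMS 4–6 and no depression for control 1–3, and do not say how major and mild were told apart. All groups, control included, also received the glucose-lowering drug repaglinide by gavage and were bled repeatedly before the livers were taken, so none was free of drug. Values are MAS 5.0 signals on a linear scale, and fold changes are on the log2 scale.

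Cholesterol is built from acetyl-CoA through mevalonate, farnesyl diphosphate, squalene and lanosterol, and the liver is a main site of its synthesis. The transcription factor SREBP2, the product of Srebf2, turns on nearly every enzyme of this route. When sterols are plentiful, Insig1 and Insig2 hold SREBP2 and its escort Scap in the endoplasmic reticulum. When sterols are low, the complex moves to the Golgi, where SREBP2 is cut free. Because 1 factor serves the whole route, its genes commonly move together.

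No member was called in any comparison at a Benjamini-Hochberg adjusted p under 0.05 from limma, and neither was any of the 18625 probe sets tested (0% in CUMS 1–3 against control, 0% in CUMS 4–6 against control, 0% in all CUMS against control and 0% in CUMS 1–3 against CUMS 4–6). The members' adjusted p ranged between 0.733 and 0.973 in CUMS 1–3 against control, between 0.765 and 0.999 in CUMS 4–6 against control, and between 0.595 and 0.991 in all CUMS against control. In direction alone, 22 of 28 members had a higher mean in CUMS 1–3 than in control, with a median log2 fold change of 0.22 over the members, while 48.9% of all probe sets were higher and their median was −0.006. In CUMS 4–6 against control 20 of 28 members were higher, with a median of 0.15, beside 46.3% and −0.021 over all probe sets. In all 6 CUMS rats against control 23 of 28 were higher, with a median of 0.18, beside 47.3% and −0.013. These comparisons share the 3 control rats, so their directions are not separate observations. The medians also rested on single rats. Without CUMS 2 the median over the members in CUMS 1–3 was 0.083, and without CUMS 2 and control 3, which both stand apart in measures given below, it was 0.15. In CUMS 4–6 it was −0.017 without CUMS 6 and 0.32 without CUMS 5.

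**Figure D1:**
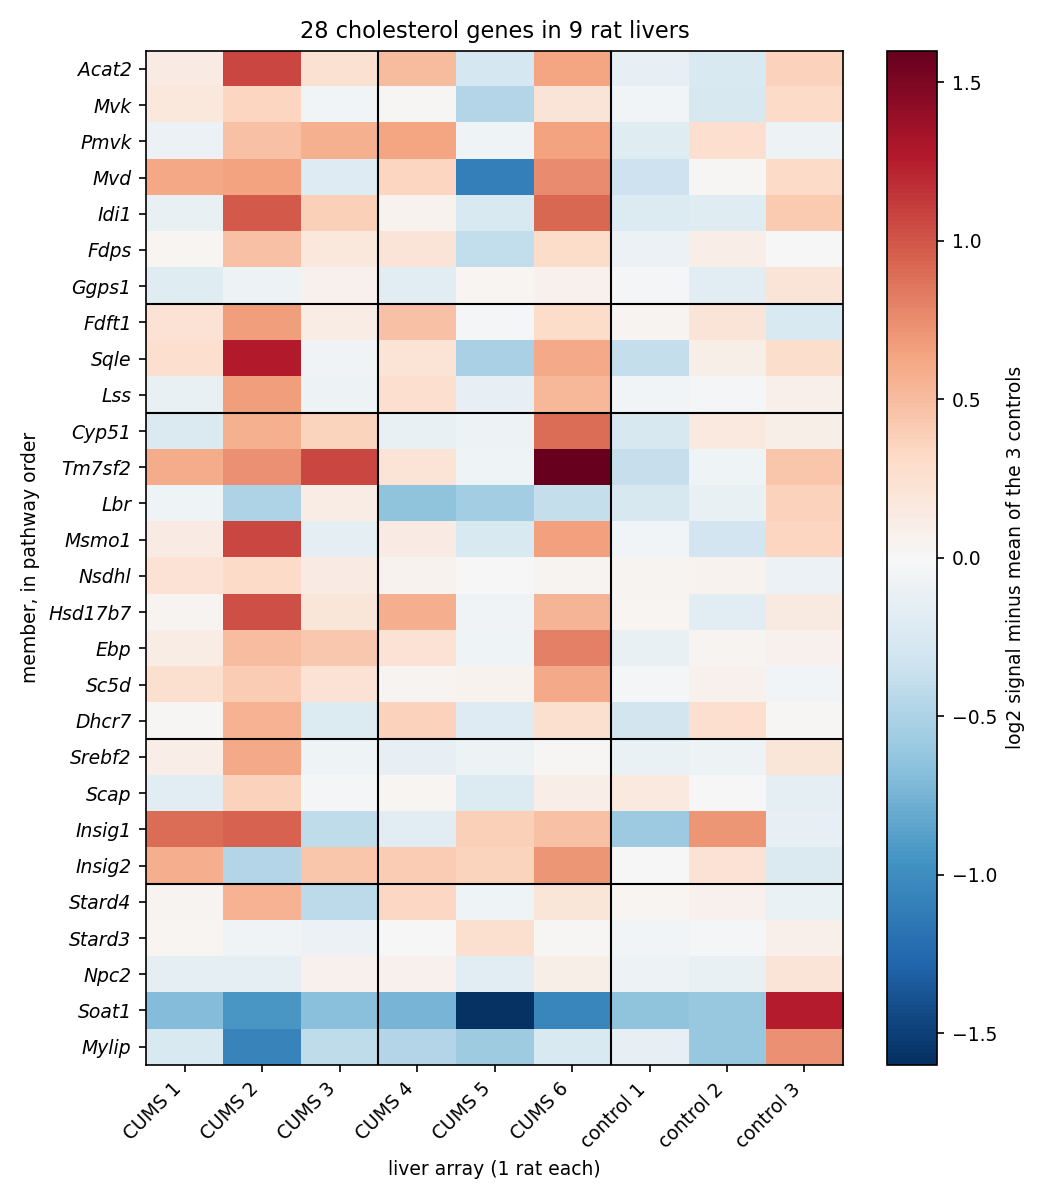
Log2 signal of each of the 28 members (rows, in pathway order and grouped by role) in each liver array (columns, 1 rat each), minus the mean of the 3 control rats. Red is above and blue below that mean, and the columns of CUMS 2 and CUMS 6 are red over most synthesis genes while that of CUMS 5 is mostly blue.

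Of the members, 1 had an unadjusted limma p under 0.05 with a higher signal in CUMS 1–3 than in control (Nsdhl), against 2.59% of all probe sets, and 0 with a lower signal, against 4.17%. Among members whose 3 CUMS 1–3 signals lay outside the range of the 3 controls, 4 were higher (Nsdhl, Tm7sf2, Sc5d and Ebp), against 5.3% of all probe sets, and 1 was lower (Soat1), against 6.32%. In CUMS 4–6 against control 0 members passed the unadjusted threshold on the higher side, against 2.73%, and 2 on the lower side (Soat1 and Lbr), against 3.55%. There 1 member lay wholly above control (Insig2), against 5.34%, and 2 wholly below (Soat1 and Lbr), against 6.29%. At the thresholds named by the study, applied to an unadjusted p under 0.05 from an equal-variance test and a fold change not under 1.5 or not over 0.5, 1 member passed in CUMS 1–3 against control (Tm7sf2), against 0.789% of all probe sets. In the other comparisons 0 members passed, against 0.644% in CUMS 4–6 and 0.988% in all CUMS against control, and 0.435% in CUMS 1–3 against CUMS 4–6.

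The 4 genes that lay wholly above control in CUMS 1–3 all encode enzymes of the last stretch, between lanosterol and cholesterol. Nsdhl, the dehydrogenase that removes the methyl groups at carbon 4 of the sterol ring, had signals of 6967, 7343 and 6531 in CUMS 1–3, of 6203, 5910 and 6116 in CUMS 4–6, and of 6129, 6159 and 5576 in control. In this probe set every CUMS 1–3 rat was above every other rat, and CUMS 4–6 overlapped control. Its log2 fold change was 0.22 ± 0.09 (SE, n = 3 rats per group) in CUMS 1–3 against control, a 1.17-fold difference that was not called (adjusted p = 0.733, limma). A second Nsdhl probe set was nearly as bright. It had 6385, 7714 and 5816 in CUMS 1–3, 6690, 5189 and 5998 in CUMS 4–6, and 5199, 5699 and 4802 in control. There CUMS 1–3 also lay above control, but CUMS 4 exceeded CUMS 1 and CUMS 3, so the stressed groups overlapped.

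Tm7sf2 encodes a sterol reductase that acts after lanosterol demethylation. Its signals were 4007, 4425 and 5570 in CUMS 1–3, 3102, 2535 and 8092 in CUMS 4–6, and 2069, 2529 and 3610 in control. CUMS 1–3 lay above control, and CUMS 6 was the highest of the 9 rats while CUMS 4 and CUMS 5 lay within the control range. The log2 fold change in CUMS 1–3 against control was 0.80 ± 0.37 (adjusted p = 0.745, limma), and it was 0.83 without CUMS 2 and 1.02 without control 3. Leaving out CUMS 3, the highest of CUMS 1–3, or control 1, the lowest control, lowers it instead. In CUMS 4–6 against control the log2 fold change was 0.58 ± 0.37 (adjusted p = 0.827, limma) and 0.07 without CUMS 6.

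Sc5d, the desaturase of the penultimate steps, had signals of 6080, 6735 and 5932 in CUMS 1–3, of 5241, 5284 and 7732 in CUMS 4–6, and of 4955, 5343 and 4933 in control. Ebp, the isomerase that shifts the ring double bond, had 5978, 7752 and 7389 in CUMS 1–3, 6460, 5232 and 9618 in CUMS 4–6, and 5081, 5687 and 5763 in control. In these probe sets of both genes CUMS 1–3 lay above control and CUMS 6 was the highest rat, with CUMS 5 inside the control range. The log2 fold changes in CUMS 1–3 against control were 0.30 ± 0.14 for Sc5d and 0.35 ± 0.19 for Ebp (adjusted p = 0.749 and 0.769, limma). Without CUMS 6 the log2 fold changes in CUMS 4–6 against control were 0.05 for Sc5d and 0.08 for Ebp, against 0.24 and 0.32 with it. The further Sc5d probe sets also had CUMS 1–3 above control, but CUMS 2 was their highest rat. In the brighter of them CUMS 2 was at 7052 and CUMS 6 at 6913, and every CUMS rat, with CUMS 5 at 5382, exceeded every control. In the dimmer, CUMS 6 at 3247 lay below all of CUMS 1–3.

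**Figure D2:**
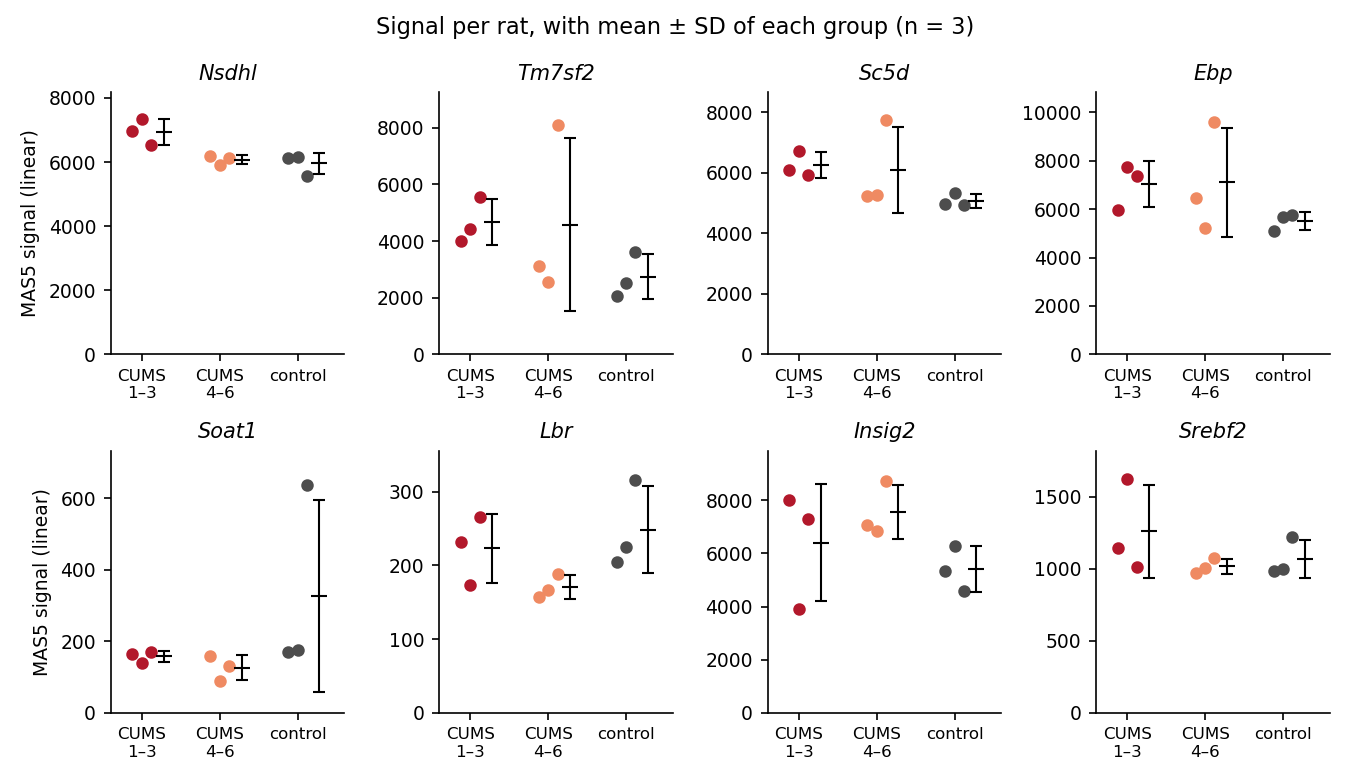
MAS 5.0 signal (linear, vertical axis from 0) of 8 members in each rat, by group from left to right CUMS 1–3, CUMS 4–6 and control, with the mean ± SD of each group (n = 3) beside the points. The 3 CUMS 1–3 rats stand above control for Nsdhl, Tm7sf2, Sc5d and Ebp, and control 3 stands apart for Soat1 at 638.

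The windows of 250 bases before and 50 after the transcription start are shown for these 4 genes, and for Srebf2 and Fdps, which are described below, because SREBP2 acts at promoters together with the CCAAT-binding factor NF-Y. They are RefSeq sequence of the GRCr8 build, read 5′ to 3′ on the gene's strand, with CCAAT (or ATTGG on the other strand) and TCACNCNA (either strand) in capitals. The windows lie at chrX:155817110-155817409 (+ strand) for Nsdhl, chr1:212789492-212789791 (− strand) for Tm7sf2, chr8:51538228-51538527 (− strand) for Sc5d, chrX:16971212-16971511 (+ strand) for Ebp, chr7:115543057-115543356 (+ strand) for Srebf2 and chr2:176804767-176805066 (− strand) for Fdps.
Nsdhl: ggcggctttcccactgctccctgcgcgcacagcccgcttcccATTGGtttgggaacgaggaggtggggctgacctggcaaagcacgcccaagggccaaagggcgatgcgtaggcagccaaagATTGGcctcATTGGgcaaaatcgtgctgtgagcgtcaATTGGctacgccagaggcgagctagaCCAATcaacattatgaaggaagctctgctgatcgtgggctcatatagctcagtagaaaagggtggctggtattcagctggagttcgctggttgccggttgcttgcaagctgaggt
Tm7sf2: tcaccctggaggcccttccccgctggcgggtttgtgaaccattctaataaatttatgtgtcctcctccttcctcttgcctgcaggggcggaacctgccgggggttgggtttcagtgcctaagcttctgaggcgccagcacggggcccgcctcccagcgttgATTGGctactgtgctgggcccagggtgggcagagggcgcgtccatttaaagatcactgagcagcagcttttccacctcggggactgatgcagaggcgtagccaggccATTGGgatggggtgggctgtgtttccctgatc
Sc5d: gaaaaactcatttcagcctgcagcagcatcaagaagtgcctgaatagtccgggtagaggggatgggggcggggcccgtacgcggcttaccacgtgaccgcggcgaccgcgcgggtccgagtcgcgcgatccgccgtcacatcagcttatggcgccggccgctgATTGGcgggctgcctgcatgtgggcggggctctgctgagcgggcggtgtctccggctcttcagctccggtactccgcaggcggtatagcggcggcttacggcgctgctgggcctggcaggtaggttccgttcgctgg
Ebp: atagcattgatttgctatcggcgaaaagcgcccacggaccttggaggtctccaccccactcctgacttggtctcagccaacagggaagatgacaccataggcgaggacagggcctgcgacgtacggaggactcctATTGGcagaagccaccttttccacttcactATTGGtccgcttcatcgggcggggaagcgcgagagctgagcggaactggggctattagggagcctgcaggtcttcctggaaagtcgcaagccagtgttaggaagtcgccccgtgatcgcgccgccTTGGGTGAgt
Srebf2: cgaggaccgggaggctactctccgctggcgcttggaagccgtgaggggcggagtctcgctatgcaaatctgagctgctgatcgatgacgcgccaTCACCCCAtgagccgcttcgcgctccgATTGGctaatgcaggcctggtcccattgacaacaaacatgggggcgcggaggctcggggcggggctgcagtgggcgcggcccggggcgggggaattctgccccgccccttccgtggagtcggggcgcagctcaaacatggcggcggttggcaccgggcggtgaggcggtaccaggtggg
Fdps: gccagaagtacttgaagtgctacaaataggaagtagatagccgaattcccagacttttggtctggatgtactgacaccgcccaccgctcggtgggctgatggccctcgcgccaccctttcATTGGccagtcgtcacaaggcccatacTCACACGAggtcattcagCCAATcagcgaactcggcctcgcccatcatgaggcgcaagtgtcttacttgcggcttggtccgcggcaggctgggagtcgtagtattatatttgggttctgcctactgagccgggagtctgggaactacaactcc

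Nsdhl held 5 CCAAT matches in this window, Tm7sf2, Ebp and Fdps 2 each, and Sc5d and Srebf2 1 each. Of the 28 members, 24 had a window in the promoter table, all but Pmvk, Fdft1, Sqle and Stard4. CCAAT was found on either strand in 19 of the 24 (79.2%), against 37.5% of all 33469 promoter windows and 36.8% of the 13243 windows of genes on the array. GGGCGG, the GC box, was found in 20 of 24 (83.3%), against 33.1% and 55.7%. TCACNCCAC, the core of the sterol regulatory element, was found in 0 of 24, against 1.12% of all windows, and TCACNCNA, a looser form that every TCACNCCAC match also holds and that was chosen after the windows had been read, in 5 of 24 (20.8%: Fdps, Srebf2, Stard3, Msmo1 and Ebp), against 9.89%. A match is only a match of letters in this window.

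Of the 9 genes between lanosterol and cholesterol, 8 had a higher mean in CUMS 1–3 than in control and 8 in CUMS 4–6. Their median log2 fold changes were 0.30 and 0.23. Without CUMS 2 the median in CUMS 1–3 was 0.12. For CUMS 4–6 it was 0.05 without CUMS 6 and 0.39 without CUMS 5. Lbr encodes the lamin B receptor, which is also a sterol reductase and does the same step as Tm7sf2. Its signals were 232, 173 and 265 in CUMS 1–3, 157, 166 and 188 in CUMS 4–6, and 204, 225 and 315 in control. All 3 CUMS 4–6 rats were below all controls, with a log2 fold change of −0.52 ± 0.23 (SE, n = 3 rats per group, adjusted p = 0.779, limma), which was −0.34 without control 3, and CUMS 1–3 overlapped control at −0.15 ± 0.23, which was 0.03 without CUMS 2 and 0.04 without control 3. Tm7sf2 was higher and Lbr lower in both CUMS groups with all rats in, and neither was called. Lbr was read at signals not far above the median probe set of an array, which lay between 108 and 134.

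Hsd17b7, the ketosteroid reductase of the demethylation complex, averaged 2422 ± 960 in CUMS 1–3, 2240 ± 512 in CUMS 4–6 and 1727 ± 185 in control (SD, n = 3 each). Its signal of 3525 in CUMS 2 was the highest of the 9 rats, and its log2 fold change in CUMS 1–3 against control was 0.42 with that rat and 0.12 without it. Msmo1, the methyl sterol oxidase, averaged 7028 ± 3347 in CUMS 1–3, 6017 ± 1902 in CUMS 4–6 and 5241 ± 1215 in control, and its log2 fold change in CUMS 1–3 of 0.35 ± 0.31 became −0.016 without CUMS 2. Cyp51, the lanosterol demethylase, averaged 8121 ± 2180, 8357 ± 3569 and 6790 ± 993 in CUMS 1–3, CUMS 4–6 and control, and Dhcr7, the last reductase of the route, 3546 ± 1000, 3558 ± 718 and 3227 ± 617. For all 4 genes the groups overlapped.

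Among the 3 genes of squalene formation and ring closure, Fdft1 (squalene synthase) had signals of 3957, 5395 and 3672 in CUMS 1–3, of 4678, 3351 and 4134 in CUMS 4–6, and of 3491, 3895 and 2847 in control. CUMS 1, 2, 4 and 6 were above all controls, and CUMS 3 and CUMS 5 lay within the control range. The log2 fold change in CUMS 1–3 against control was 0.34 ± 0.18 (adjusted p = 0.760, limma), 0.17 without CUMS 2 and 0.21 without control 3. Sqle, squalene epoxidase, averaged 1723 ± 868 in CUMS 1–3, 1274 ± 467 in CUMS 4–6 and 1151 ± 257 in control, and its 2712 in CUMS 2 set the spread, since the log2 fold change in CUMS 1–3 was 0.49 with that rat and 0.11 without it. Lss, which closes the rings to lanosterol, averaged 1664 ± 546 in CUMS 1–3, 1723 ± 390 in CUMS 4–6 and 1449 ± 70.4 in control.

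In the mevalonate and isoprenoid steps, 6 of 7 genes had a higher mean in CUMS 1–3 than in control and 5 of 7 in CUMS 4–6, with median log2 fold changes of 0.31 and 0.03. Both medians moved with single rats. Without CUMS 2 the median was 0.13 in CUMS 1–3. For CUMS 4–6 it was −0.10 without CUMS 6, with 2 of 7 genes higher, 0.48 without CUMS 5 and 0.16 without control 3. Pmvk, phosphomevalonate kinase, had signals of 1059, 1577 and 1682 in CUMS 1–3, of 1757, 1080 and 1778 in CUMS 4–6, and of 996, 1370 and 1071 in control. In each CUMS group 2 of 3 rats exceeded every control and the third did not, and the log2 fold change in CUMS 4–6 was 0.40 ± 0.23 (adjusted p = 0.815, limma), 0.64 without CUMS 5. Acat2, the cytosolic thiolase that joins acetyl-CoA units, averaged 2001 ± 762 in CUMS 1–3, 1729 ± 529 in CUMS 4–6 and 1395 ± 331 in control. Its log2 fold change in CUMS 1–3 was 0.48 with CUMS 2 and 0.19 without it.

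Idi1, the isomerase of isopentenyl diphosphate, averaged 5537 ± 2121 in CUMS 1–3, 4963 ± 2194 in CUMS 4–6 and 4043 ± 1089 in control, with 7833 in CUMS 2 and 7456 in CUMS 6 above the highest control. Mvd, the decarboxylase, was lowest in CUMS 5 at 183, where the other 8 rats lay between 310 and 657. Fdps, which makes farnesyl diphosphate, averaged 12826 ± 1989 in CUMS 1–3, 11400 ± 2726 in CUMS 4–6 and 10930 ± 776 in control, and Mvk, mevalonate kinase, 843 ± 112, 723 ± 164 and 761 ± 150. Ggps1, which leads off to geranylgeranyl diphosphate rather than to sterols, averaged 295 ± 27.3 in CUMS 1–3, 303 ± 26.6 in CUMS 4–6 and 310 ± 41.9 in control. The groups overlapped for all 7 genes.

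**Figure D3:**
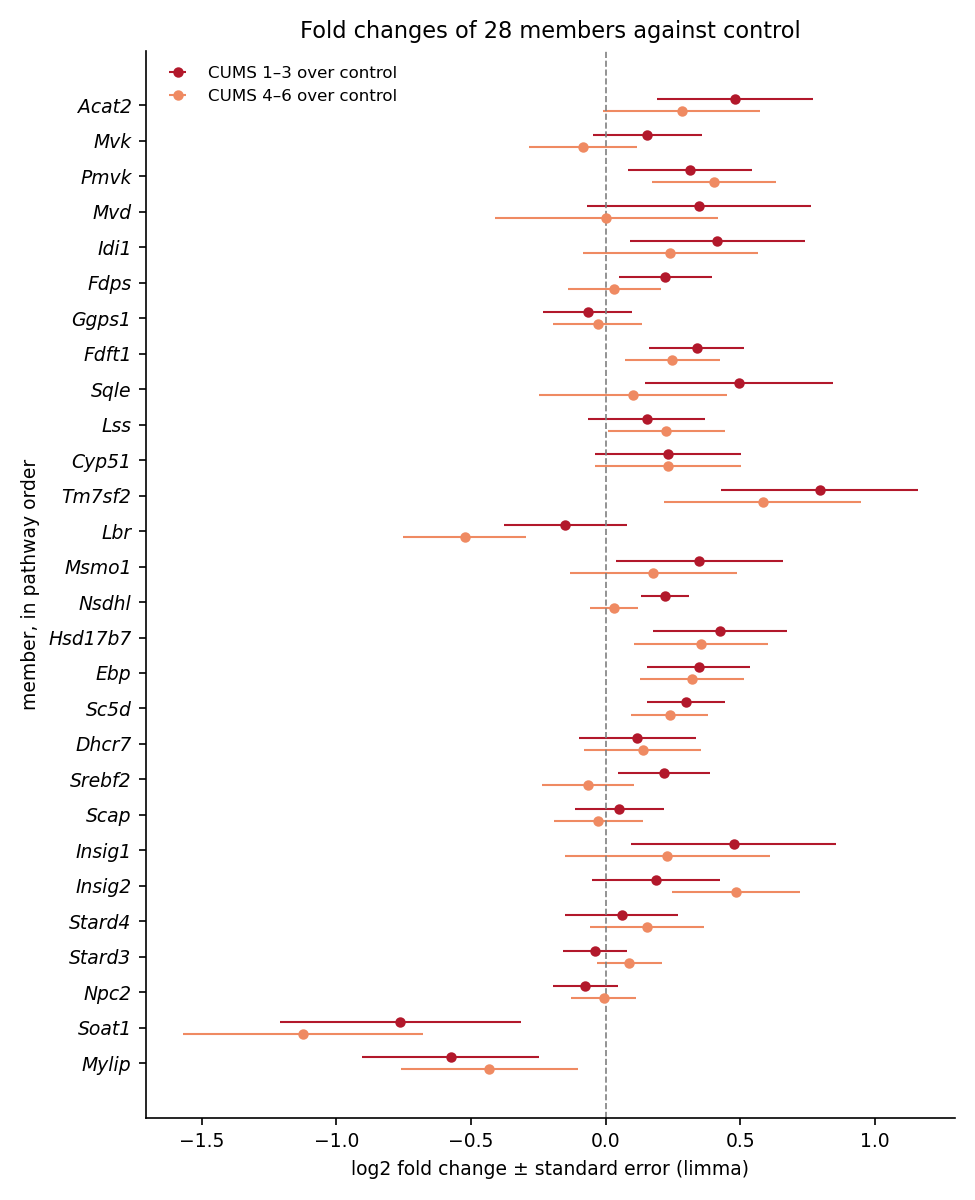
Log2 fold change ± standard error (limma, horizontal axis) of the 28 members against control, in pathway order down the page, with CUMS 1–3 above CUMS 4–6 for each gene. Most synthesis genes lie right of 0 with error bars that reach near or over it, and Soat1 and Mylip lie left of 0 in both groups.

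The synthesis genes differed widely from rat to rat within the stressed groups. Over the 19 genes, the median of log2 signal minus the control mean was 0.12, 0.57 and 0.13 in CUMS 1, 2 and 3, 0.22, −0.13 and 0.60 in CUMS 4, 5 and 6, and −0.11, 0.02 and 0.14 in control 1, 2 and 3. By group these medians averaged 0.28 ± 0.26 in CUMS 1–3, 0.23 ± 0.37 in CUMS 4–6 and 0.02 ± 0.13 in control (SD, n = 3 rats each), so the difference from control was of the size of the spread within the stressed groups. CUMS 2 had the highest signal of all 9 rats in 11 of the 19 genes and CUMS 6 in 6, and the remaining 2 were highest in control 3. CUMS 5 had the lowest in 7, although it had the same treatment and the same mild label as CUMS 6. The number of the 19 genes above the control mean was 13, 17 and 13 in CUMS 1–3, 16, 2 and 18 in CUMS 4–6, and 3, 10 and 14 in control.

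CUMS 2 and CUMS 6, named as high from these same genes, had medians above the control mean in each synthesis role. Below that mean were Lbr and Ggps1 in CUMS 2, at −0.50 and −0.08, and Lbr in CUMS 6, at −0.38. In CUMS 2 the median was 0.47 over the mevalonate and isoprenoid genes, 0.67 over those of squalene and ring closure and 0.55 over those after lanosterol, and in CUMS 6 it was 0.63, 0.54 and 0.61. In CUMS 5 these medians were −0.28, −0.13 and −0.07. The SD within groups, on the log2 scale, had a median of 0.33 over the synthesis genes and 0.31 over the other 9 members, against 0.25 over all probe sets tested.

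**Figure D4:**
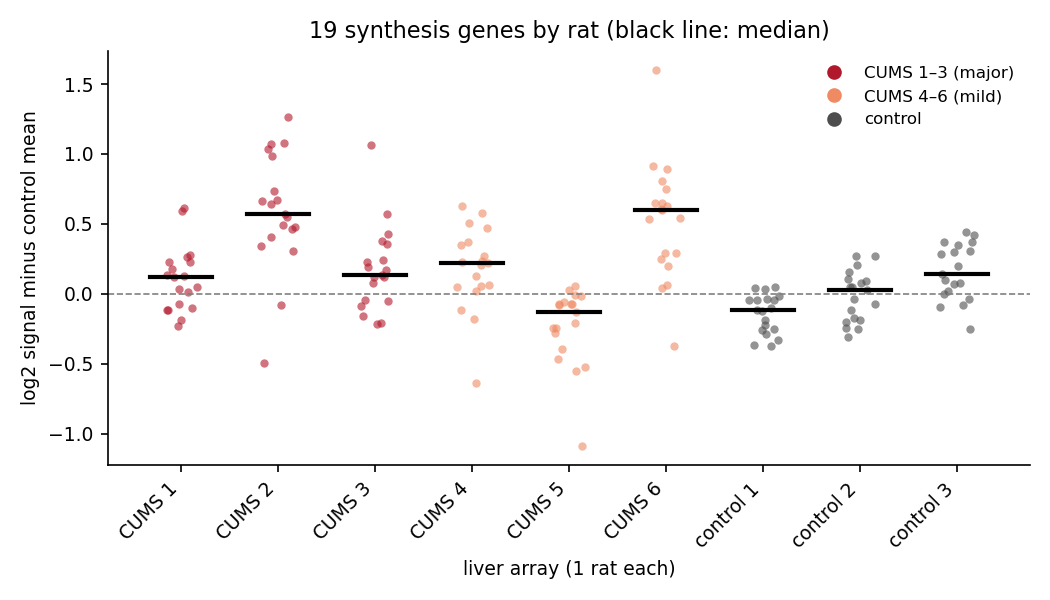
Log2 signal minus the control mean (vertical axis) of the 19 synthesis genes in each rat, 1 point per gene, with the black line at the median. The medians of CUMS 2 and CUMS 6, at 0.57 and 0.60, stand above those of the other rats, and that of CUMS 5 is the lowest at −0.13.

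The actin and GAPDH control probe sets give a ratio of signal at the 3′ end to that at the 5′ end, which rises as RNA is broken or copied short, and both ratios peaked in CUMS 2. The actin ratio was 3.73, 5.23 and 3.55 in CUMS 1–3, 4.96, 3.18 and 3.67 in CUMS 4–6, and 3.66, 3.54 and 2.51 in control. For GAPDH it was 1.75 in CUMS 2, and the other 8 rats lay between 1.32 and 1.46. CUMS 6, with a synthesis median as high as that of CUMS 2, had ratios of 3.67 and 1.32, and the part of RNA quality in the values of CUMS 2 was not tested.

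Of the genes that control SREBP2, Srebf2 itself had signals of 1142, 1620 and 1012 in CUMS 1–3, of 972, 1003 and 1070 in CUMS 4–6, and of 982, 999 and 1217 in control. CUMS 2 was the highest rat here too, but CUMS 6 lay within the control range. The log2 fold change in CUMS 1–3 against control was 0.22 ± 0.17 (SE, n = 3 rats per group, adjusted p = 0.848, limma) and 0.02 without CUMS 2. Scap, the escort of SREBP2, had 816, 1188 and 899 in CUMS 1–3, 942, 793 and 993 in CUMS 4–6, and 1031, 920 and 825 in control, and was highest in CUMS 2 as well.

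Insig1, whose own gene is a target of SREBP2, had signals of 13201, 13583 and 5332 in CUMS 1–3, of 6300, 9267 and 9819 in CUMS 4–6, and of 4754, 11536 and 6483 in control. Signals differed widely within each group, the groups overlapped, and the log2 fold change in CUMS 1–3 against control was 0.48 ± 0.38 (adjusted p = 0.850, limma), 0.24 without CUMS 2. Insig2, whose liver transcript rises in fasting and falls with insulin in rodents, had signals of 8001, 3891 and 7307 in CUMS 1–3, of 7086, 6863 and 8736 in CUMS 4–6, and of 5348, 6297 and 4589 in control. All rats of CUMS 4–6 and 2 of CUMS 1–3 were above all controls, whereas CUMS 2, where Srebf2, Scap, Insig1 and most synthesis genes were highest, was the lowest of the 9 for Insig2. In CUMS 4–6 against control the log2 fold change was 0.49 ± 0.24 (adjusted p = 0.782, limma). In CUMS 1–3 it was 0.19 ± 0.24 with CUMS 2 and 0.51 without it.

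**Figure D5:**
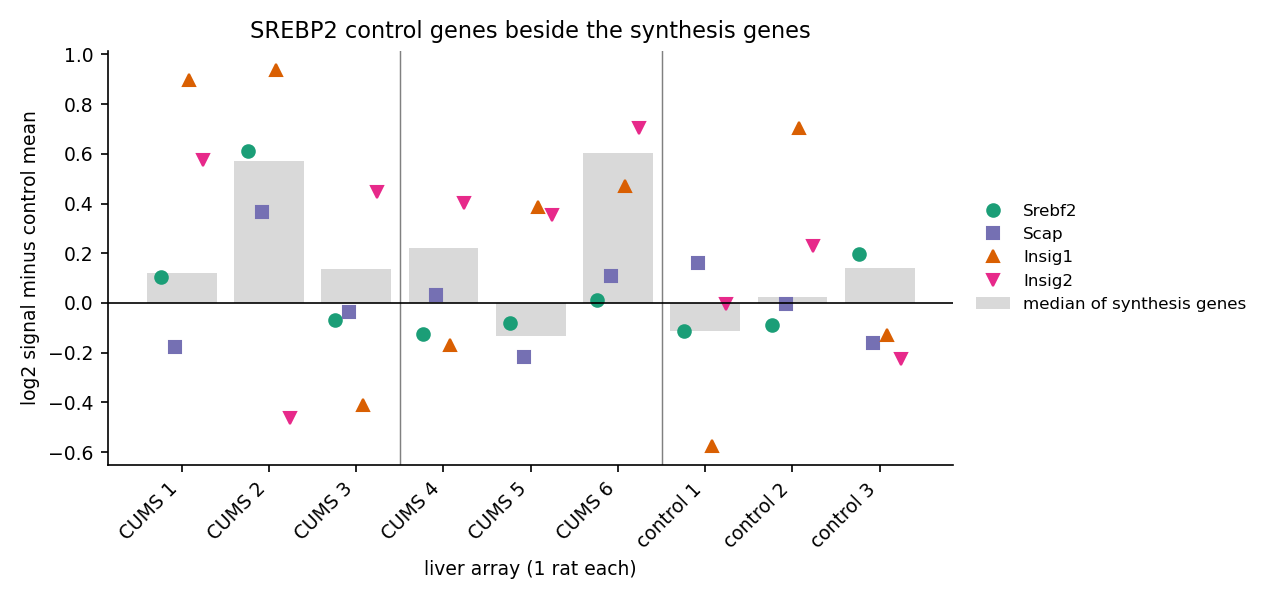
Log2 signal minus the control mean (vertical axis) of Srebf2, Scap, Insig1 and Insig2 in each rat (horizontal axis), beside the median over the 19 synthesis genes (grey bars). In CUMS 2 the bar stands at 0.57 with Insig2 the only control gene below 0, while in CUMS 6, with a bar at 0.60, Srebf2 stands near 0.

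Of the genes of transport, esterification and receptor turnover, Soat1 and Mylip had the most negative log2 fold changes of all members in CUMS 1–3. Soat1, an enzyme that esterifies cholesterol for storage in many cell types including macrophages, had signals of 166, 140 and 169 in CUMS 1–3, of 159, 89.3 and 130 in CUMS 4–6, and of 170, 175 and 638 in control. All 6 CUMS rats lay below all 3 controls, but CUMS 3 lay close to control 1, and control 3 stood far above the other 8 rats. Outside control 3, Soat1 was read at signals near the median probe set of an array, which lay between 108 and 134. A second Soat1 probe set, below the filter, also had lower means in both CUMS groups, but not this order. Its 47.7 in CUMS 4 exceeded 39.2 in control 1 and 12.8 in control 2, with 133 in control 3. In all CUMS against control, where 4.86% of all probe sets had an unadjusted p under 0.05 on the lower side and 3.07% on the higher side, Soat1 was the only member on the lower side and 0 were on the higher side. It was also the only member wholly below control, against 2.15% of all probe sets, and 0 were wholly above, against 1.52%. Soat1 in all CUMS against control had a log2 fold change of −0.94 ± 0.39 (adjusted p = 0.595, limma) and −0.31 without control 3. In CUMS 1–3 it was −0.76 and −0.13 without that rat, and in CUMS 4–6 −1.12 and −0.50.

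Mylip, the ubiquitin ligase that sends lipoprotein receptors to degradation and is induced by oxysterol receptors, had signals of 236, 133 and 210 in CUMS 1–3, of 201, 187 and 234 in CUMS 4–6, and of 255, 183 and 464 in control. It too was highest in control 3 and lowest in CUMS 2, and the groups overlapped. The log2 fold change in CUMS 1–3 against control was −0.57 ± 0.33 (adjusted p = 0.772, limma), −0.21 without control 3 and −0.33 without CUMS 2. The lysosomal sterol carrier Npc2 averaged 7574 ± 654 in CUMS 1–3, 7953 ± 827 in CUMS 4–6 and 7999 ± 1024 in control. The sterol transfer proteins Stard4 and Stard3 overlapped between groups, with log2 fold changes in CUMS 1–3 against control of 0.06 ± 0.21 and −0.04 ± 0.12.

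Control 3 differed from the other livers in its markers of other cells. The summed signal of 12 stellate cell and fibroblast markers was 5316 to 6186 in CUMS 1–3, 6941 to 8525 in CUMS 4–6, and 9069, 9440 and 35806 in control 1, 2 and 3. That of 4 measured bile duct markers was 648 to 1119 in the 6 CUMS rats, and 1062, 970 and 9007 in control. Of the 11 stellate markers past the filter, all 11 had lower means in both CUMS groups than in control, with 0 called. At an unadjusted p under 0.05 (limma), 7 of the 11 were lower in CUMS 1–3, against 4.17% of all probe sets. In CUMS 4–6 it was 4, against 3.55%. The summed signal of 6 measured Kupffer cell and macrophage markers was 11024 to 16600 in CUMS 1–3, 11023 to 16142 in CUMS 4–6 and 15198 to 18887 in control. All 6 had lower means in CUMS 1–3 and 5 of 6 in CUMS 4–6, again with 0 called, as were 0 of 4 endothelial, 3 bile duct, 2 lymphocyte and 1 pancreas markers past the filter. Of the 6 macrophage markers, 3 were lower at an unadjusted p under 0.05 in each CUMS group against control (limma). The part of these cells in the values of Soat1, Mylip and Lbr, and of Abcg1 and Rnf145 described below, was not tested, and in bulk liver fewer cells of a type and less RNA per cell cannot be told apart. All 7 hepatocyte markers passed the filter, and none was called. Against control 3 of the 7 had higher means in CUMS 1–3 and 6 of 7 in CUMS 4–6, and in CUMS 1–3 against CUMS 4–6 1 was higher and 6 lower. Alb, the gene of serum albumin, had signals of 22976, 17128 and 19912 in CUMS 1–3, of 29583, 27540 and 25610 in CUMS 4–6, and of 26932, 26122 and 20382 in control. CUMS 1–3 lay wholly below CUMS 4–6, at −0.47 ± 0.13 (adjusted p = 0.9996, limma), and overlapped control at −0.29 ± 0.13. The median correlation of an array with the other 8 was 0.951 for control 3 and between 0.965 and 0.972 for the rest.

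Between the stressed groups no member was called, with a lowest adjusted p of 0.9996 among them (limma). In CUMS 1–3 against CUMS 4–6, 0 of 28 members passed an unadjusted p under 0.05 on the higher side, against 1.52% of all probe sets, and 0 on the lower side, against 1.32%. Of the members, 1 was wholly higher in CUMS 1–3 (Nsdhl), against 4.75%, and 0 wholly lower, against 4.37%. Nsdhl had a log2 fold change of 0.19 ± 0.09 (SE, n = 3 rats per group). In its second probe set the stressed groups overlapped, at 0.15. Next by size of t were Srebf2 at 0.28 ± 0.17, which was 0.08 without CUMS 2, Lbr at 0.37 ± 0.23, and Insig2 at −0.30 ± 0.24, which was 0.02 without CUMS 2.

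Of 14 members with several probe sets of their own, 12 had at least 2 past the filter. In 10 of these the sets had the same sign in CUMS 1–3 against control, and in Ggps1 and Stard4 they differed in sign. They differed in sign in CUMS 4–6 against control in 5 of the 12 (Mvk, Ggps1, Sc5d, Scap and Stard4), and in CUMS 1–3 against CUMS 4–6 in 7 of the 12 (Mvk, Ggps1, Lss, Cyp51, Hsd17b7, Scap and Stard4), so for these genes the sign depended on the probe set read. Some of these values lay near 0. In CUMS 1–3 against CUMS 4–6 the Cyp51 sets were at −8.3e-07 and 0.19, and the Lss sets at −0.07 and 0.07. The Scap sets were at 0.08 and −0.38.

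The surrounding sterol genes were followed in 4 further lists. Of 11 measured genes of SREBP processing and sterol-regulated degradation, 5 had higher and 6 lower means in CUMS 1–3 than in control, with a median log2 fold change of −0.04 and 0 called. The smallest p were those of Rnf145 and Rnf139, ubiquitin ligases of the endoplasmic reticulum, at −0.30 ± 0.19 and 0.14 ± 0.10. Rnf145 had signals of 336, 302 and 335 in CUMS 1–3 against 377, 317 and 528 in control, and was at −0.09 without control 3 and −0.46 without control 2. Rnf139 was at 0.09 without control 3. Of 10 genes of the oxysterol receptors, efflux and their targets past the filter, 4 were higher and 6 lower, with 0 called. Abcg1, a sterol exporter, was at −0.62 ± 0.27 (adjusted p = 0.737, limma), with signals of 594, 445 and 682 in CUMS 1–3 against 793, 658 and 1257 in control. Without control 3 it was at −0.35. The oxysterol receptor gene Nr1h2 was at −0.24 ± 0.13.

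Of 17 measured genes of intracellular sterol transport, ester hydrolysis and uptake, 12 were higher and 5 lower in CUMS 1–3, with 0 called. Ces1d, a carboxylesterase that hydrolyses lipid esters, was at 0.68 ± 0.24 (adjusted p = 0.722, limma), with signals of 7686, 8500 and 4866 in CUMS 1–3 against 5239, 4062 and 3663 in control, where CUMS 3 overlapped control 1. In CUMS 4–6 its signals were 5707, 8101 and 9954, all above control, at 0.85 ± 0.24 (adjusted p = 0.744, limma). The oxysterol-binding protein gene Osbp was at 0.23 ± 0.12 in CUMS 1–3 against control, and at 0.12 without control 3. Of 15 measured genes of the non-sterol isoprenoid branch, 4 were higher and 11 lower in CUMS 1–3, while 11 were higher and 4 lower in CUMS 4–6, with 0 called in either. Coq7, of ubiquinone synthesis, was at 0.38 ± 0.19, and Dhdds, of dolichol synthesis, at 0.38 ± 0.19, which was 0.23 without CUMS 2.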

How the data were processed

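Liver RNA of 9 rats (3 per group) was hybridised to Affymetrix rat expression arrays, 1 array per rat. The deposited values are signal intensities that the authors made with MAS 5 on a linear scale, and each array has a trimmed mean near 500.2. Without 57 control probe sets, and with 586 signals raised to a floor of 1, log2 signals were used. Of 31099 probe sets, the dimmer 40% on average were dropped, so that 18625 with a mean log2 signal of at least 6.07 were tested. The 3 groups were fitted together with limma 3.58.1 in R 4.3.3 (6 residual degrees of freedom, variances that follow the signal), and p-values were adjusted over all probe sets tested. Scripts were tested on simulated data. Where a gene had several probe sets, that with the highest mean log2 signal was used, and 20826 probe sets had 1 gene symbol, 436 several and 9780 none. Signals on every array in full were given for the members with the largest t, 6 in CUMS 1–3 and 4 in CUMS 4–6 against control and 4 between both CUMS groups, and for Srebf2, Scap, Insig1, Insig2 and Mylip, and for each further list the 2 genes of smallest p were named. Signals of Abcg1, Rnf145, Ces1d and Alb, and of further probe sets of Nsdhl and Sc5d, were chosen for display after their values were seen. For Abcg1 and Rnf145 those of CUMS 4–6 were left out. The members, the lists and these rules were chosen with earlier results of these data known. Replicates are rats, so the p-values measure the spread between rats, and the number of arrays limits the precision. Correlations between same-numbered CUMS 1–3 and control rats, after removal of group means, were 0.003, −0.049 and 0.14, so the numbers were not taken as pairs. As alternatives, arrays were quantile normalised or centred on their medians, 50 was added before log2, the filter was dropped or kept only the upper 40%, and the variance trend was dropped, and array weights, an equal-variance ANOVA (the test the study names, also used for its thresholds), the mean of all probe sets of a gene, only the groups compared, the replicate number as a block and leaving out each rat were tried. Leaving out CUMS 2 and control 3 together was chosen after seeing the data. Slide and scan dates were not given in the sources used here.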

Additional observations from a re-analysis of the deposited data

Results flagged for a closer look

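Over the 6 CUMS rats, both labels pooled, 28 members were examined for a rat far from the others. The measure was the gap to the nearest rat as a share of the whole range (Dixon). Normally distributed values would pass its threshold in about 1 of 20, and 3 members passed. The share of all probe sets that pass was not computed, so 3 of 28 cannot be called many or few. Insig2 was low in CUMS 2, at 3891 against 6863 in the nearest rat, with a share of 0.702. Srebf2 was high in the same rat, at 1620 against 1142, with a share of 0.685. Stard3 was high in CUMS 5, at 980 against 838, with a share of 0.659. CUMS 2 is also the rat with the highest actin and GAPDH ratios, whose part in these values was not tested.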

How the results depend on the processing

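Over all alternatives no member was called, and the lowest adjusted p of a member from limma or the ANOVA was 0.297 in CUMS 1–3, 0.575 in CUMS 4–6 and 0.425 in all CUMS against control, and 0.997 between the CUMS groups. Over all probe sets, 0 were called in the 4 comparisons (1259, 1170, 1477 and 530 at an unadjusted p under 0.05, limma), except 1 with the equal-variance ANOVA in CUMS 1–3 against control (977 unadjusted) and 1 each with arrays centred on the median in CUMS 4–6 and in all CUMS against control. With the replicate block in CUMS 1–3 against control 0 were called (1361 unadjusted). Leaving out 1 rat at a time, the median over the members was 0.083 to 0.28 in CUMS 1–3, −0.017 to 0.32 in CUMS 4–6 and 0.092 (without CUMS 2) to 0.29 (without CUMS 5) in all CUMS against control. For CUMS 1–3 against CUMS 4–6 it was −0.058 (without CUMS 5) to 0.26 (without CUMS 6), against 0.085 with all rats. The median over synthesis genes in that comparison was 0.17, with a range of −0.068 (without CUMS 5) to 0.32 (without CUMS 6), −0.049 without CUMS 2, and −0.049 without CUMS 2 and control 3. Against control it was 0.12 (without CUMS 2) to 0.40 in CUMS 1–3, 0.025 (without CUMS 6) to 0.39 (without CUMS 5) in CUMS 4–6, and 0.11 (without CUMS 2) to 0.36 in all CUMS.

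Over the alternatives and left-out rats, the sign differed from that with all rats in 24 of 587 values of single members in CUMS 1–3, 42 of 559 in CUMS 4–6 and 23 of 531 in all CUMS against control, and in 56 of 559 in CUMS 1–3 against CUMS 4–6, with the cause not tested. Many of these values could not turn, since the filters, the variance trend, the ANOVA, the block and the choice of groups keep the fold change. Leaving out a rat of a group outside the comparison also keeps it. The shares that turned therefore do not measure how stable the directions were. Without CUMS 2, Msmo1, Lss, Dhcr7, Lbr, Scap and Stard4 turned in CUMS 1–3 against control, and without CUMS 6, Mvd, Idi1, Fdps, Sqle, Cyp51 and Msmo1 turned in CUMS 4–6 against control. Between the CUMS groups 11 members turned without CUMS 5 and 9 without CUMS 2. Those that turned follow as log2 fold changes, with ranges where 1 rat was left out.

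Leaving out 1 rat at a time, the sign turned in 10 members in CUMS 1–3 against control. Ggps1 lay between −0.16 and 0.034, Lss between −0.10 and 0.29, Lbr between −0.28 and 0.037, Msmo1 between −0.016 and 0.60 and Dhcr7 between −0.099 and 0.28. Insig2 lay between −0.0092 and 0.51, Scap between −0.11 and 0.17, Stard4 between −0.19 and 0.30, Stard3 between −0.071 and 0.0034 and Npc2 between −0.14 and 0.028. The sign turned in 14 members in CUMS 4–6 against control. Mvk lay between −0.23 and 0.11, Mvd between −0.37 and 0.55, Idi1 between −0.097 and 0.48, Ggps1 between −0.12 and 0.071 and Fdps between −0.097 and 0.25. Sqle lay between −0.15 and 0.41, Cyp51 between −0.098 and 0.40, Msmo1 between −0.059 and 0.39, Nsdhl between −0.016 and 0.055 and Dhcr7 between −0.0075 and 0.31. Insig1 lay between −0.058 and 0.58, Srebf2 between −0.12 and 0.034, Scap between −0.11 and 0.070 and Npc2 between −0.066 and 0.097. In all CUMS against control it turned in 9 members. Mvk lay between −0.090 and 0.19, Mvd between −0.011 and 0.45, Ggps1 between −0.14 and 0.053, Dhcr7 between −0.018 and 0.26 and Srebf2 between −0.023 and 0.17. Scap lay between −0.067 and 0.093, Stard4 between −0.017 and 0.23, Stard3 between −0.015 and 0.067 and Npc2 between −0.10 and 0.063. Between the CUMS groups, as CUMS 1–3 against CUMS 4–6, it turned in 19 members. Pmvk lay between −0.33 and 0.12, Mvd between −0.20 and 0.72, Idi1 between −0.11 and 0.51, Ggps1 between −0.11 and 0.025 and Fdps between −0.025 and 0.32. Fdft1 lay between −0.076 and 0.20, Lss between −0.33 and 0.084, Cyp51 between −0.17 and 0.33, Tm7sf2 between −0.12 and 0.72 and Msmo1 between −0.19 and 0.43. Hsd17b7 lay between −0.23 and 0.26, Ebp between −0.17 and 0.27, Sc5d between −0.035 and 0.25, Dhcr7 between −0.24 and 0.15 and Acat2 between −0.095 and 0.37. Insig2 lay between −0.50 and 0.024, Scap between −0.080 and 0.19, Stard4 between −0.34 and 0.15 and Mylip between −0.31 and 0.11.

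Without CUMS 2 and control 3, Ggps1 was 0.042, Lss −0.063, Lbr 0.21, Dhcr7 −0.089, Scap −0.19, Stard4 −0.24, Stard3 0.0092, Npc2 0.065 and Mylip 0.042 in CUMS 1–3 against control. For CUMS 4–6 against control, Mvk was 0.067, Ggps1 0.071, Nsdhl −0.016, Srebf2 0.034 and Npc2 0.097. For all CUMS against control, Ggps1 was 0.057, Scap −0.15, Stard4 −0.070 and Npc2 0.081. For CUMS 1–3 against CUMS 4–6, Idi1 was −0.11, Fdft1 −0.076, Msmo1 −0.19, Hsd17b7 −0.23, Ebp −0.049, Acat2 −0.095, Insig2 0.024, Scap −0.080 and Mylip 0.11. With array weights, Scap was −0.014 in CUMS 1–3 against control. For CUMS 4–6 against control, Mvd was −0.053, Ggps1 0.042, Fdps −0.023 and Npc2 0.015. For all CUMS against control, Scap was −0.050. For CUMS 1–3 against CUMS 4–6, Ebp was −0.0021 and Dhcr7 0.046. With arrays centred on the median, Stard3 was 0.010 in CUMS 1–3 against control. For CUMS 4–6 against control, Ggps1 was 0.029, Scap 0.031 and Npc2 0.051. For all CUMS against control, Ggps1 was 0.0056 and Npc2 0.013. With the mean of all probe sets of a gene, where the second sets of Srebf2 and Soat1 lay below the filter, Ggps1 was 0.019, Srebf2 0.36 and Scap 0.28 in CUMS 4–6 against control. For CUMS 1–3 against CUMS 4–6, Cyp51 was 0.093, Hsd17b7 −0.063, Srebf2 −0.19, Scap −0.15, Stard4 0.024 and Soat1 −0.23. With quantile normalization, Ggps1 was 0.035, Fdps −0.060, Nsdhl −0.044 and Scap 0.016 in CUMS 4–6 against control. For all CUMS against control, Ggps1 was 0.012. For CUMS 1–3 against CUMS 4–6, Cyp51 was 0.057. With 3 rats a group and this spread between rats, absence of a call does not show that the genes did not differ.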
